A study of Mus musculus with 2 samples.

Results

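Immediate early genes are switched on within minutes of a stimulus, before any new protein is made, and stress response genes follow damage, heat or metal. In single cells of newborn mouse skin, 40 such genes were taken by symbol from the 32285 genes counted, and all 40 were found. The list holds 8 genes of the AP-1 transcription factor family (Fos, Fosb, Fosl1, Fosl2, Jun, Junb, Jund and Atf3) and 11 other early regulators (Egr1, Egr2, Egr3, Ier2, Ier5, Nr4a1, Nr4a2, Klf2, Klf6, Btg2 and Cebpd). It further holds 3 NF-kB feedback genes (Nfkbia, Nfkbiz, Tnfaip3) and 6 genes of cytokine and MAPK feedback (Zfp36, Socs3, Dusp1, Dusp6, Trib1, Phlda1). The remaining 12 are 3 Gadd45 genes, 4 heat shock genes (Hspa1a, Hspa1b, Dnajb1, Hsph1), the metallothioneins Mt1 and Mt2, and the effectors Ier3, Rhob and Sgk1. No measured value chose the members.

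Fos and Jun proteins pair to form AP-1, which binds promoters of growth and repair genes, and keratinocytes switch it on upon wounding and culture. NF-kB factors drive inflammatory genes and, among them, their own inhibitors, so that Nfkbia and Tnfaip3 report recent NF-kB activity. Heat shock factor drives the Hsp70 genes when proteins unfold, and the metal-sensing factor Mtf1 drives the metallothioneins. Many of these genes are also known to be switched on while a tissue is digested into single cells.

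The control library was labelled Wildtype and the other library miR-200b induced. Both came from whole dorsal skin of mice at P3, and both were treated with Dox (doxycycline, used to switch on transgenes). Epidermis and dermis were dissociated separately with warm enzymes (dispase and trypsin for the first, with collagenase added for the second), then mixed with the larger share from the dermis and captured with 10x Genomics 3' chemistry. The labels name neither the promoter that drives the induction nor the number, sex or pooling of animals. With 1 library per group the groups could not be tested against each other, and genotype, animal and preparation cannot be told apart.

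Barcodes with at least 1000 UMIs (counted RNA molecules), 500 genes and under 15% mitochondrial UMIs were kept, 5178 in the control and 5258 in the induced library, with medians of 14748 and 18019.5 UMIs. The induced label was met by Gm13648, the transcript annotated over the Mir200b locus, at 2.34 and 528 CPM (UMIs of a gene per 1000000 UMIs of the class) in epithelial cells and at 0.165 and 28.9 CPM in fibroblast-like cells. Classes were rebuilt from marker genes without use of the 40 genes, and a "-like" belongs to each name. Most epithelial clusters held cells of 1 library: of basal epidermal-like cells, 490 of 501 control cells lay in cluster E4, and all but 1 of the 1599 induced cells lay in E1, E8, E14 and E21. Fibroblast-like cells shared cluster N1 (566 control and 219 induced cells), with 81 induced cells in cluster N27, whose leading genes were Lpl, Dcn and collagens. All values below are given with the control library first, ratios are log2 of induced over control, and the intervals in brackets (95%, exact Poisson for a level and exact binomial for a ratio) cover counting error only. Of 74 barcodes present in both libraries, 10 were kept in both.

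Short stretches of promoter show how different the inputs to these genes are. RefSeq promoters (GRCm38.p6) were at hand for 32 of the 40 genes, and 250 bases before each start were searched on both strands. One printed window of 30 bases is given for each kind of input, with the matched letters in capitals. Each runs 5' to 3' on the strand of the gene. They are a CArG box (bound by serum response factor) at chr7:28379267-28379296 (minus strand) for Zfp36, and a CRE (TGACGTCA, bound by CREB and ATF factors) at chr17:26508597-26508626 (minus strand) for Dusp1. The others are a kappaB motif at chr12:55492657-55492686 (minus strand) for Nfkbia, heat shock elements (GAANNTTC) at chr17:34972242-34972271 and chr17:34959324-34959353 (both minus strand) for Hspa1a and Hspa1b, and a metal response element (TGCACNC or TGCGCNC) at chr8:94179054-94179083 (plus strand) for Mt1. None of these matches overlaps a match of another motif searched.
Zfp36: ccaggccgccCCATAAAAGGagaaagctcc
Dusp1: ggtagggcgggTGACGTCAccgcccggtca
Nfkbia: tgactggcttGGAAATTCCCcgcgcctgac
Hspa1a: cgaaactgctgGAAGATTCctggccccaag
Hspa1b: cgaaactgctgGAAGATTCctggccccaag
Mt1: gcggtcccgctgTGCACACtggcgctccag

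The Hspa1a and Hspa1b windows are the same in all 30 bases, as the 2 genes are near-identical copies, so their UMIs cannot be assigned to one or the other with certainty. A kappaB motif was in 9 of the 32 promoters (28.1%) and in 7.01% of 27025 promoters of the same length. The metal response element was in 13 (40.6%, against 21.3%), the heat shock element in 4 (12.5%, against 6.78%) and the CRE in 2 (6.25%, against 1.62%). The AP-1 site TGANTCA was in 2 (6.25%, against 6.87%), the CArG box in 1 (3.12%, against 1.40%) and the TATA box TATAAA in 5 (15.6%, against 13.0%). A match of letters is a description and shows no binding.

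The induced microRNA could reach some of these transcripts directly, so its sequence and its matches were set beside their levels. The mature miR-200b-3p is printed with its seed, bases 2 to 8, in capitals (RefSeq, GRCm38.p6, chr4:156055685-156055706, minus strand). Below it are sites in the 3' ends of Fosb (chr7:19304035-19304064), Jun (chr4:95049922-95049951) and Dusp1 (chr17:26505917-26505946), all on the minus strand of GRCm38 in the 3' untranslated exon, with the 7 bases that pair with the seed in capitals. In these 3 genes the match is followed by an A, the form that microRNAs are known to bind best.
miR-200b-3p: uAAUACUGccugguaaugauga
Fosb: ccacccctgtgCAGTATTatgctatgtccc
Jun: tcgatctcattCAGTATTaaaggggggtgg
Dusp1: gacacacccacCAGTATTaaccattcccga

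Of the 40 genes, 10 (25%) had such a match: Fosb, Jun, Atf3, Egr3, Ier5, Cebpd, Tnfaip3, Dusp1, Phlda1 and Hsph1, the last with 2. Among 20701 measured genes with a 3' UTR, 2746 (13.3%) had one, and median 3' UTR lengths were 1019.5 and 960.0 bases. In basal epidermal-like cells the median log2 ratio was -0.58 over the 8 genes with a match that reached 20 CPM and -0.83 over the 26 without. Over all epithelial cells the medians were -0.65 (9 genes) and -0.38 (27 genes). In fibroblast-like cells, where the log2 ratios of all of these genes were above 0, the medians were 1.55 (8 genes) and 1.84 (24 genes). The medians thus differed in opposite directions in basal and in all epithelial cells. Of single genes in basal cells, the lowest log2 ratios were those of Fosb (-2.69) and Atf3 (-1.75), with a match, and Klf2 (-2.17) and Dnajb1 (-1.90), without one. No difference between matched and unmatched genes was tested.

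Most of the genes were lower in the induced library in basal epidermal-like cells and higher in fibroblast-like, dermal papilla-like, pericyte-like and endothelial-like cells. The fibroblast difference was present within a cluster that both libraries shared. The basal clusters reported here hold almost only cells of 1 library each, and in a clustering with genes centred within each library the AP-1 difference was also present within a basal cluster that both shared. In suprabasal-like cells 21 of 34 log2 ratios were below 0, between clusters almost only of 1 library each. The shared suprabasal cluster of the centred clustering had instead a median of 0.12, with 4 genes called higher (all genes: 3.49%) and 2 lower (all genes: 5.25%). Summed AP-1 stood at 9826 and 4348 CPM in basal epidermal-like cells (log2 ratio -1.18 (-1.19 to -1.16)) and at 2116 and 6292 CPM in fibroblast-like cells (1.57 (1.54 to 1.61)). In the control library AP-1 was highest in basal epidermal-like cells and fibroblast-like cells ranked near the bottom, above sebaceous-like cells at 1920.4 CPM. In the induced library dermal papilla-like, pericyte-like, endothelial-like and fibroblast-like cells ranked above all others, in that order, and basal epidermal-like cells stood below outer follicle-like and suprabasal-like cells.

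**Figure D1:**
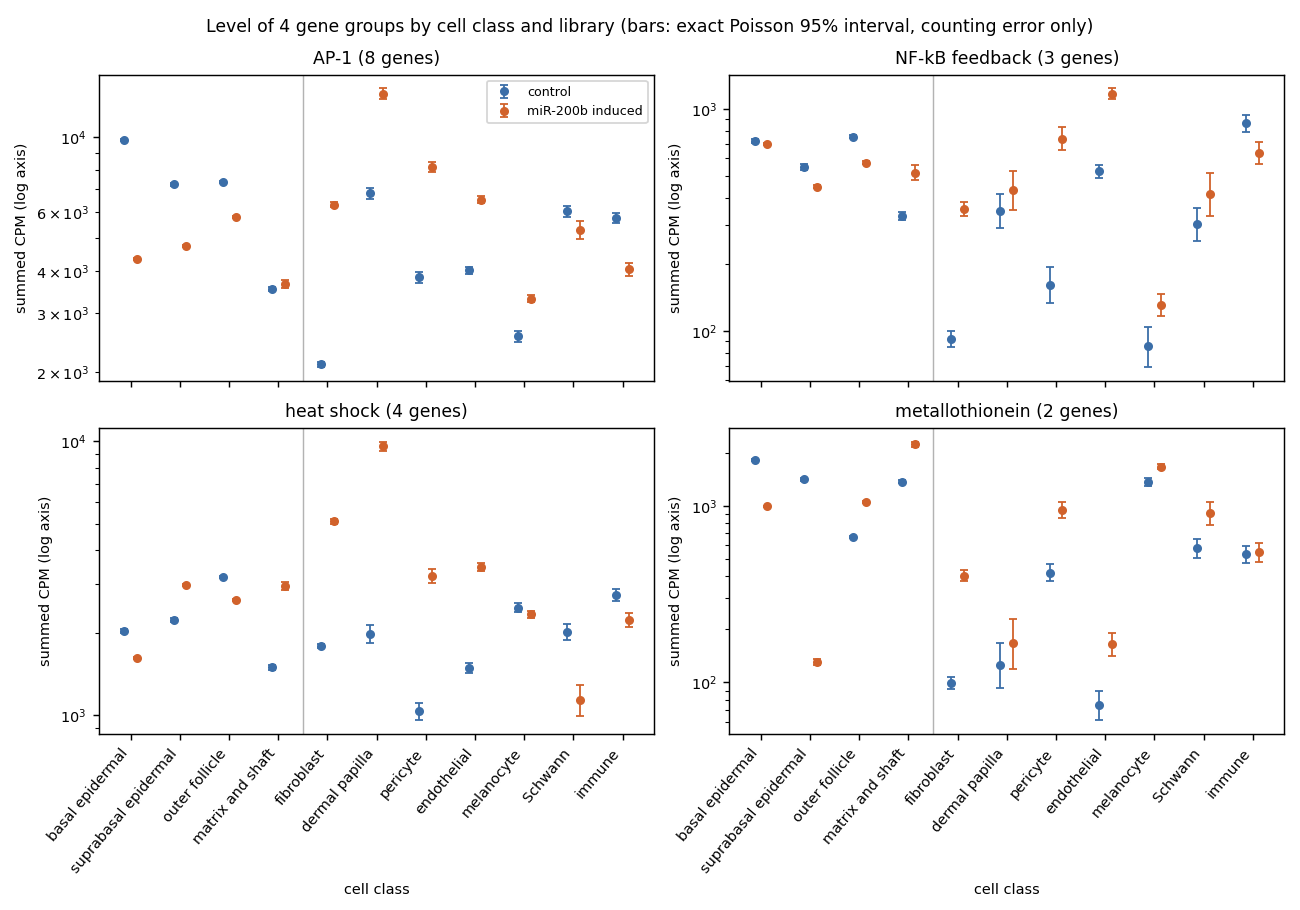
Summed CPM (log axis) of the AP-1, NF-kB feedback, heat shock and metallothionein genes in 11 cell classes, control in blue and induced in orange, with exact Poisson 95% intervals for counting error. The vertical line parts epithelial from other classes: AP-1 is lower in induced basal epidermal-like cells (9826 and 4348 CPM) and higher in induced fibroblast-like cells (2116 and 6292 CPM).

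Calls used a fixed size: a mean of at least 20 CPM, a 2-fold ratio of CPM plus 5, and an interval of the ratio that excludes 1. Over all epithelial cells (4220 control and 4408 induced), 36 members reached 20 CPM. None was called higher (all genes: 2.3%) and 6 were called lower (all genes: 4.19%): Fosb, Egr2, Egr3, Klf2, Gadd45g and Rhob. The pool holds classes in different shares, such as 501 control and 1599 induced basal cells and 226 and 3 sebaceous-like cells, so its ratios also carry differences between classes. Log2 ratios were below 0 for 31 of the 36, with a median of -0.42 beside -0.12 for all 5866 genes at that level. In basal epidermal-like cells 15 of 34 were called lower (all genes: 2.76%) and 1, Sgk1, higher (all genes: 2.56%), with a median of -0.80 beside 0.06. In suprabasal-like cells (256 and 509 cells), 8 of 34 were called lower (all genes: 7.5%) and 4 higher (all genes: 7.11%). In outer follicle-like cells (2219 and 1492), 2 of 37 were lower (all genes: 2.55%), namely Egr3 and Gadd45g, and 1, Cebpd, was higher (all genes: 2.32%).

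In fibroblast-like cells (569 and 300), 24 of 32 members were called higher (all genes: 4.35%) and none lower (all genes: 2.98%), with a median log2 ratio of 1.74 beside -0.02 over 6275 genes. Pericyte-like cells (56 and 51) had 25 of 34 higher (all genes: 7.76%) and none lower (all genes: 8.96%). In dermal papilla-like cells (53 and 91), 17 of 33 were higher (all genes: 8.91%) and 1, Egr3, lower (all genes: 7.06%). Endothelial-like cells (81 and 77) had 11 of 36 higher (all genes: 3.46%) and none lower (all genes: 5.83%). Melanocyte-like cells (84 and 255) showed less: 2 of 31, Trib1 and Gadd45g, were higher (all genes: 1.93%) and none lower (all genes: 1.96%). As shares of the members at that level, these counts stand far above the all-gene percentages in fibroblast-like and pericyte-like cells, and they come to 1 or 2 genes in outer follicle-like and melanocyte-like cells. Immune-like cells (36 and 26) went the other way from fibroblast-like cells, with a median log2 ratio of -0.23: 5 of 37 were lower (all genes: 4.6%), namely Fosb, Junb, Atf3, Nr4a1 and Rhob, and 2, Socs3 and Ier3, were higher (all genes: 3.83%). Schwann-like cells (40 and 23) were mixed, with a median of 0.10, 4 of 37 higher (all genes: 4.81%) and 3 lower (all genes: 3.32%). Among epithelial classes, matrix and shaft-like cells (240 and 62) had no common direction: 22 of 35 log2 ratios were above 0, with a median of 0.09. Heat shock as a group was higher there, at 1491 and 2965 CPM (0.99 (0.94 to 1.05)). The median of the genes was -0.10 in the matrix cluster that both libraries shared with genes centred within each library (66 and 57 cells). In the reported class 1, Hspa1a, was called higher (all genes: 5.26%) and 2, Socs3 and Dusp6, lower (all genes: 6.57%). In the shared matrix cluster 3 of 36, Klf2, Hspa1a and Hspa1b, were higher (all genes: 266 of 5975). Socs3 and Dusp6 were again lower there (all genes: 278 of 5975). Unnamed epithelial cells (778 and 743), control cells mostly in E3 and E18 and induced cells in E10 and E13, had 9 of 35 lower (all genes: 6.69%) and 2, Nfkbia and Nfkbiz, higher (all genes: 2.33%).

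**Figure D2:**
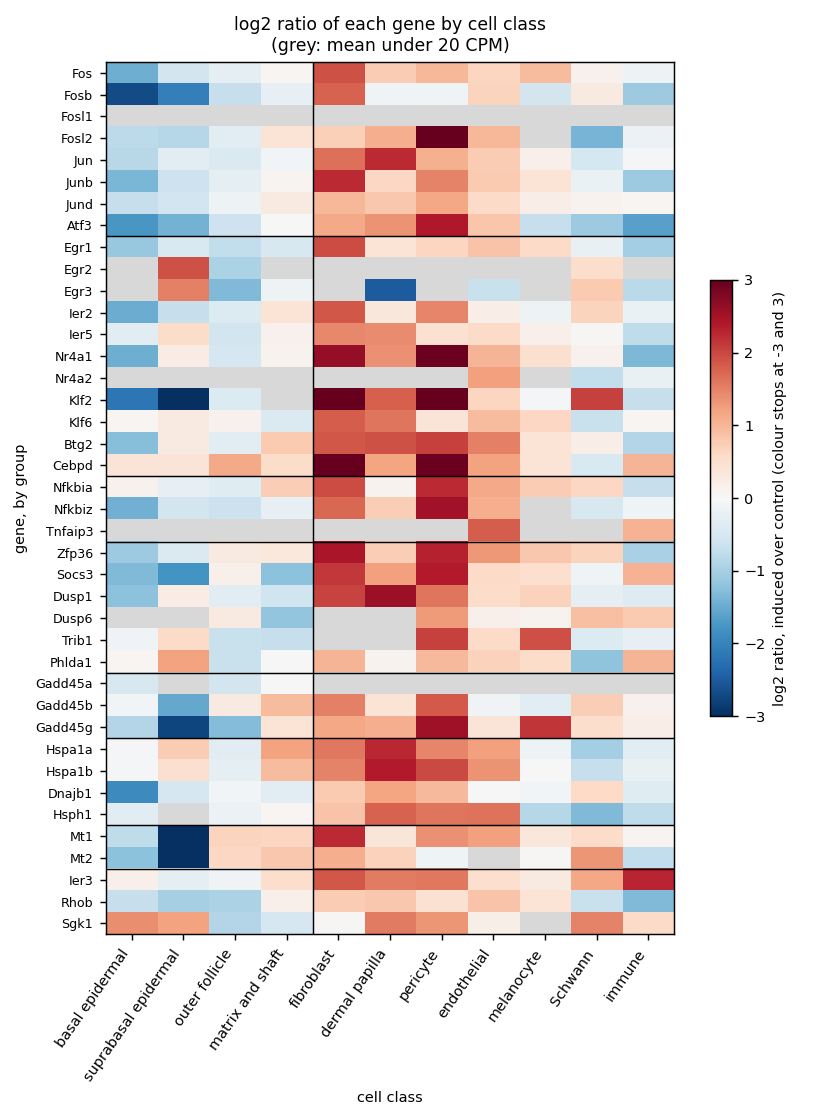
Log2 ratio of induced over control for each of the 40 genes (rows, by group) in 11 cell classes (columns), with grey where the mean is under 20 CPM and colours ending at -3 and 3. The fibroblast, dermal papilla, pericyte and endothelial columns are mostly red and the basal epidermal column mostly blue.

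Fos, which pairs with Jun proteins and decays within the hour, was read at 2809 CPM (2775 to 2844) and 1020.3 CPM (1010.2 to 1030.4) in basal epidermal-like cells. In fibroblast-like cells the same gene had 423 CPM (406 to 439) and 1578 CPM (1522 to 1634), so the order of the libraries was the reverse, with log2 ratios of -1.46 and 1.90. In epithelium as a whole Fos differed less, at 1520.3 and 1171 CPM. Its close relative Fosb had the largest epidermal difference of the family: 388 and 60.0 CPM in basal, 277 and 67.4 CPM in suprabasal and 194 and 75.3 CPM in all epithelial cells, against 38.3 and 129.7 CPM in fibroblast-like cells.

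Jun, the main partner of Fos, stood at 2142 and 1497 CPM in epithelial, 2383 and 1344 CPM in basal and 652 and 2065 CPM in fibroblast-like cells. Junb, a Jun relative that restrains growth, stood at 948 and 707 CPM, 1432 and 550.2 CPM and 189 and 888 CPM in the same classes. Jund, the least inducible of the Jun genes, differed least, at 1091 and 940.5 CPM, 1607 and 987 CPM and 709 and 1419.8 CPM, and was past 2-fold in none of the 3. Atf3, a repressor induced by many stresses, stood at 596 and 340.2 CPM in epithelial and 1113 and 331 CPM in basal cells. In fibroblast-like cells Atf3 was at 71.6 and 157 CPM, but at 72.0 and 91.8 CPM in the shared cluster N1 alone. Fosl2 was at 74.9 and 51.3 CPM in epithelial cells and was highest in induced dermal papilla-like cells (96.4 and 206 CPM). Fosl1 stayed under 20 CPM in all classes compared, with 0 to 13.6 CPM.

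The early regulators as a group were at 2753 and 1991 CPM in epithelial, 3474 and 1564 CPM in basal and 845 and 3526 CPM in fibroblast-like cells. Egr1, a zinc finger factor driven by growth signals, had 618 and 381 CPM, 754 and 345 CPM and 148 and 571 CPM in these classes. Ier2 had 648 and 476 CPM, 1138 and 409 CPM and 172 and 624 CPM, and Btg2, which slows division, had 769 and 590.4 CPM, 1175 and 484 CPM and 234 and 855 CPM. All 3 were called lower in basal and higher in fibroblast-like cells.

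Egr2 and Egr3, relatives of Egr1, were low in basal cells and were called lower over all epithelial cells but not in each class. In outer follicle-like cells Egr2 had 108 and 56.7 CPM and Egr3 177 and 70.8 CPM. In basal epidermal-like cells they were under 20 CPM in both libraries, and in suprabasal-like cells both were called higher in the induced library (10.96 and 40.8 CPM for Egr2 and 22.2 and 62.6 CPM for Egr3). In the shared suprabasal cluster of the centred clustering neither was called, at 65.7 and 72.4 CPM (0.14 (-0.12 to 0.41)) and 87.1 and 106 CPM (0.28 (0.06 to 0.51)). Egr3 was also high in control sebaceous-like cells, at 236.9 CPM, a class with 226 control and 3 induced cells, and in matrix and shaft-like cells (150.3 and 135 CPM). In unnamed epithelial cells both were called lower (112 and 17.6 CPM and 70.7 and 18.6 CPM). Across epithelium they stood at 75.2 and 31.2 CPM and 129.5 and 44.0 CPM.

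Klf2, a zinc finger factor that flow induces in vessels, was highest in endothelial-like cells, at 776 and 1214 CPM. In fibroblast-like cells Klf2 had 16.4 and 203 CPM, one of the largest ratios of the list (3.63 (3.31 to 3.96)), and 16.5 and 187 CPM in N1 alone. In epithelial cells it went the other way, at 35.1 and 11.9 CPM overall and 59.5 and 3.84 CPM in suprabasal-like cells. Klf6, a wound-induced relative, had 232 and 238 CPM in epithelial (log2 ratio 0.04, and 0 without cluster E21) and 136 and 480.2 CPM in fibroblast-like cells.

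Nr4a1, an orphan nuclear receptor induced by calcium and cAMP signals, stood at 101 and 56.5 CPM in epithelial, 82.3 and 29.8 CPM in basal and 20.1 and 124 CPM in fibroblast-like cells. Its relative Nr4a2 was highest in Schwann-like cells (254 and 152 CPM) and under 20 CPM in each epithelial class. Ier5 had 72.5 and 55.5 CPM in epithelial (log2 ratio -0.39, but 0.09 under a stricter cell filter) and 63.2 and 173 CPM in fibroblast-like cells. Cebpd, a factor of acute inflammation and early fat cell formation, was the 1 member called higher in outer follicle-like cells (106 and 233 CPM), at 68.2 and 104 CPM in all epithelial cells. In fibroblast-like cells Cebpd had the largest ratio of the list, 36.4 and 471 CPM, yet 36.4 and 105 CPM in N1 alone, so most of the difference lay in the 81 cells of N27.

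NF-kB feedback was close between the libraries over all epithelial cells and in basal cells, and its direction differed between epithelial classes. Its summed level was 583 and 632 CPM in epithelial cells (log2 ratio 0.12 (0.10 to 0.13), but -0.04 as a mean of per-cell CPM) and 719 and 698 CPM in basal cells (-0.04 (-0.08 to 0)). It was lower in the induced library in suprabasal-like (547 and 448 CPM) and outer follicle-like cells (752 and 573 CPM) and higher in matrix and shaft-like cells (330.1 and 518 CPM). The largest difference was in unnamed epithelial cells, at 329 and 923 CPM (log2 ratio 1.49 (1.44 to 1.54)), with most cells in clusters of 1 library. Of the unnamed clusters that hold both, E13 had 826 and 824 CPM and E22 169 and 369.7 CPM. These directions depended on the clustering. With genes centred within each library, NF-kB feedback was higher in the induced cells of 9 of the 11 shared epithelial clusters (median log2 ratio 0.13, -0.50 to 0.82). The basal one had 584 and 782 CPM (0.42 (0.34 to 0.50)), the suprabasal one 421 and 451 CPM (0.10 (0 to 0.20)) and the matrix one 569 and 516 CPM (-0.14 (-0.29 to 0)). The outer follicle-like ones were higher in 5 of 6, and the 2 unnamed ones had 260.4 and 460.5 CPM and 404 and 608 CPM. Nfkbia, which encodes the inhibitor that holds NF-kB in the cytoplasm, made up most of it, with 497 and 565 CPM in epithelial (log2 ratio 0.19, but -0.02 without cluster E21) and 588 and 643 CPM in basal cells. By basal cluster, Nfkbia had 396, 292 and 631 CPM in induced E1, E8 and E14 and 590 CPM in control E4. Nfkbiz, a nuclear inhibitor-like protein, differed from it within the same cells, at 74.8 and 56.3 CPM in epithelial (log2 ratio -0.41, but 0.11 under a stricter cell filter) and 125 and 45.9 CPM in basal cells. In fibroblast-like cells all 3 genes had higher CPM in the induced library: Nfkbia 75.5 and 293 CPM, Nfkbiz 13.8 and 45.5 CPM and Tnfaip3, a ubiquitin-editing inhibitor, 2.96 and 16.5 CPM. Tnfaip3 passed 20 CPM in endothelial-like cells (16.4 and 57.8 CPM) and immune-like cells (55.1 and 113 CPM).

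A single basal cluster stood apart in NF-kB feedback. Cluster E21, with 157 induced cells and 1 control cell, was led by Irf1, Id3 and Icam1 and had 3116 CPM of NF-kB feedback, 2966 CPM of it from Nfkbia. The other induced basal clusters E1, E8 and E14 had 443, 321 and 694 CPM, and the control cluster E4 had 722 CPM. E21 was also high in AP-1 (8321 CPM, against 3615 to 4119 CPM in the other 3), Atf3 (1490.0 CPM), Socs3 (623 CPM) and metallothionein (2772 CPM). Its heat shock level, 1163 CPM, was the lowest of the 4. Without E21 the epithelial NF-kB feedback ratio was -0.07 instead of 0.12, a change of direction. Its cells had a median of 19710 UMIs and 6.30% mitochondrial UMIs, near the medians of all induced basal cells (23377 UMIs and 6.16%).

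Cytokine and MAPK feedback stood at 1711 and 802 CPM in basal and 346 and 1427 CPM in fibroblast-like cells, and at 1116 and 979 CPM in all epithelial cells. Zfp36, which speeds the decay of cytokine mRNAs, had 331 and 337 CPM in epithelial (log2 ratio 0.03, but -0.03 without cluster E21), 597 and 281 CPM in basal and 71.6 and 394 CPM in fibroblast-like cells. Socs3, an inhibitor of JAK and STAT signalling, had 234 and 203 CPM, 586 and 234 CPM and 65.7 and 286 CPM. Dusp1, a phosphatase that switches off stress-activated MAP kinases, had 295 and 266 CPM, 436 and 187 CPM and 156 and 632 CPM. These 3 were called lower in basal and higher in fibroblast-like cells. Over all epithelial cells Dusp1 had a log2 ratio of -0.15, but 0.35 under a stricter cell filter.

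The other 3 feedback genes were unlike them. Dusp6, the phosphatase induced by ERK, was low in basal cells (7.73 and 16.2 CPM) and had 39.2 and 36.3 CPM in epithelial (log2 ratio -0.11, and 0 relative to the median gene) and 80.0 and 89.0 CPM in endothelial-like cells. Trib1 had 66.6 and 40.8 CPM in epithelial cells and was called higher in melanocyte-like (9.01 and 34.3 CPM) and pericyte-like cells (10.8 and 45.0 CPM). Phlda1, a marker of follicle stem cells, had 151 and 94.8 CPM in epithelial cells and was highest in melanocyte-like cells, at 1181 and 1718 CPM.

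The Gadd45 genes, which act in growth arrest and DNA repair, stood at 307 and 247 CPM in epithelial and 296 and 709 CPM in fibroblast-like cells. Gadd45g was called lower over all epithelial cells (129 and 53.03 CPM), in suprabasal-like cells (67.8 and 10.0 CPM) and in outer follicle-like cells (146 and 59.0 CPM), and higher in fibroblast-like cells (165 and 368 CPM). Gadd45b had 156 and 178 CPM in epithelial, 195 and 67.7 CPM in suprabasal and 117 and 329 CPM in fibroblast-like cells. Gadd45a passed 20 CPM in basal (26.8 and 19.2 CPM), outer follicle-like (26.1 and 17.9 CPM) and matrix and shaft-like cells (22.1 and 22.2 CPM).

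The heat shock group differed less than AP-1 in basal cells and most in the dermis. It stood at 2814 and 2268 CPM in epithelial, 2023 and 1618 CPM in basal, 1790.3 and 5096 CPM in fibroblast-like and 1979 and 9564 CPM in dermal papilla-like cells. Hspa1a and Hspa1b, the inducible Hsp70 genes, carried most of it: Hspa1a had 1340.1 and 1050.4 CPM in epithelial and 945 and 2820.0 CPM in fibroblast-like cells, and Hspa1b 1170.4 and 997 CPM and 763 and 2133 CPM. In basal cells their levels were close, at 755 and 726 CPM and 789.7 and 751 CPM. Dnajb1, the Hsp40 partner of Hsp70, was instead lower there (455 and 122 CPM, called) and had 265 and 196 CPM in all epithelial and 48.7 and 84.2 CPM in fibroblast-like cells. Hsph1, the nucleotide exchange factor of Hsp70, had 38.5 and 24.5 CPM in epithelial and 32.7 and 58.9 CPM in fibroblast-like cells. In suprabasal-like cells the group was higher in the induced library, at 2221 and 2983 CPM, and at 3056 and 3447 CPM in the shared suprabasal cluster of the centred clustering. Matrix and shaft-like cells had 1491 and 2965 CPM (log2 ratio 0.99 (0.94 to 1.05)).

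Metallothioneins, small metal-binding proteins, showed the largest class-by-class contrast. In suprabasal-like cells Mt1 had 1184 CPM (1159.8 to 1209) and 119 CPM (115 to 124) and Mt2 had 231 CPM (221 to 242) and 11.2 CPM (9.88 to 12.6), log2 ratios of -3.31 and -4.37. This contrast fell between clusters of 1 library each: control cells lay in E16 (1543 CPM for the pair) and induced cells in E11 and E20 (167 and 66.8 CPM). In the suprabasal cluster that both libraries shared in the centred clustering (31 and 152 cells) the pair had 84.5 and 66.5 CPM. In basal cells Mt1 had 1354 and 795 CPM and Mt2 466 and 199 CPM, while in outer follicle-like cells both were higher in the induced library (535 and 845 CPM and 135 and 209 CPM, neither past 2-fold). Over all epithelial cells the values were 645 and 633 CPM for Mt1 (log2 ratio -0.03, but 0.20 as a mean of per-cell CPM and 0.09 relative to the median gene) and 184 and 152 CPM for Mt2, and the direction of the pair (log2 ratio -0.08) turned to 0.16 as a mean of per-cell CPM and to 0.04 relative to the median gene. In fibroblast-like cells the pair had 99.0 and 403 CPM, but 99.4 and 87.8 CPM in N1, and 953 CPM in the induced cells of N27, so the fibroblast difference lay in N27. Its log2 ratio of 2.02 was 4.0 when likely doublets were removed and 3.54 under a stricter cell filter.

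The last 3 genes summed to 392 and 416 CPM in basal cells (log2 ratio 0.08 (0.03 to 0.14)), so they too stood apart from AP-1 there, and to 680.2 and 459 CPM in all epithelial cells. The basal value includes cluster E21, at 1141 CPM, while induced E1, E8 and E14 had 308, 386 and 407 CPM. Control cluster E4 had 392 CPM. The shared basal cluster of the centred clustering had 392 and 397 CPM (0.02 (-0.08 to 0.12)). Of the 3 genes, Rhob was called lower over all epithelial cells and Ier3 higher in fibroblast-like cells. Rhob, a small GTPase induced by stress and growth factors, had 224 and 80.1 CPM in epithelial and 219.8 and 375 CPM in fibroblast-like cells. Of the epithelial classes Rhob was called lower in the unnamed cells alone (301 and 58.7 CPM), with 75.9 and 46.5 CPM in basal, 148 and 73.9 CPM in suprabasal-like, 264 and 135 CPM in outer follicle-like and 132 and 147 CPM in matrix and shaft-like cells. Sgk1, a kinase induced by glucocorticoids and salt, had 131 and 63.5 CPM over all epithelial cells and 229 and 125 CPM in outer follicle-like cells. In basal and suprabasal-like cells it was instead called higher in the induced library, at 12.2 and 32.0 CPM and 18.3 and 42.3 CPM, between clusters with cells almost only of 1 library. In the shared clusters of the centred clustering it was not called, at 15.7 and 21.5 CPM in the basal one (0.46 (-0.02 to 0.95)) and 44.7 and 32.6 CPM in the suprabasal one (-0.46 (-0.79 to -0.11)), where the direction turned. Ier3, a survival factor driven by NF-kB, had 325 and 316 CPM in epithelial (log2 ratio -0.04, but 0.02 under a stricter cell filter and 0.08 relative to the median gene) and 104 and 379.9 CPM in fibroblast-like cells.

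**Figure D3:**
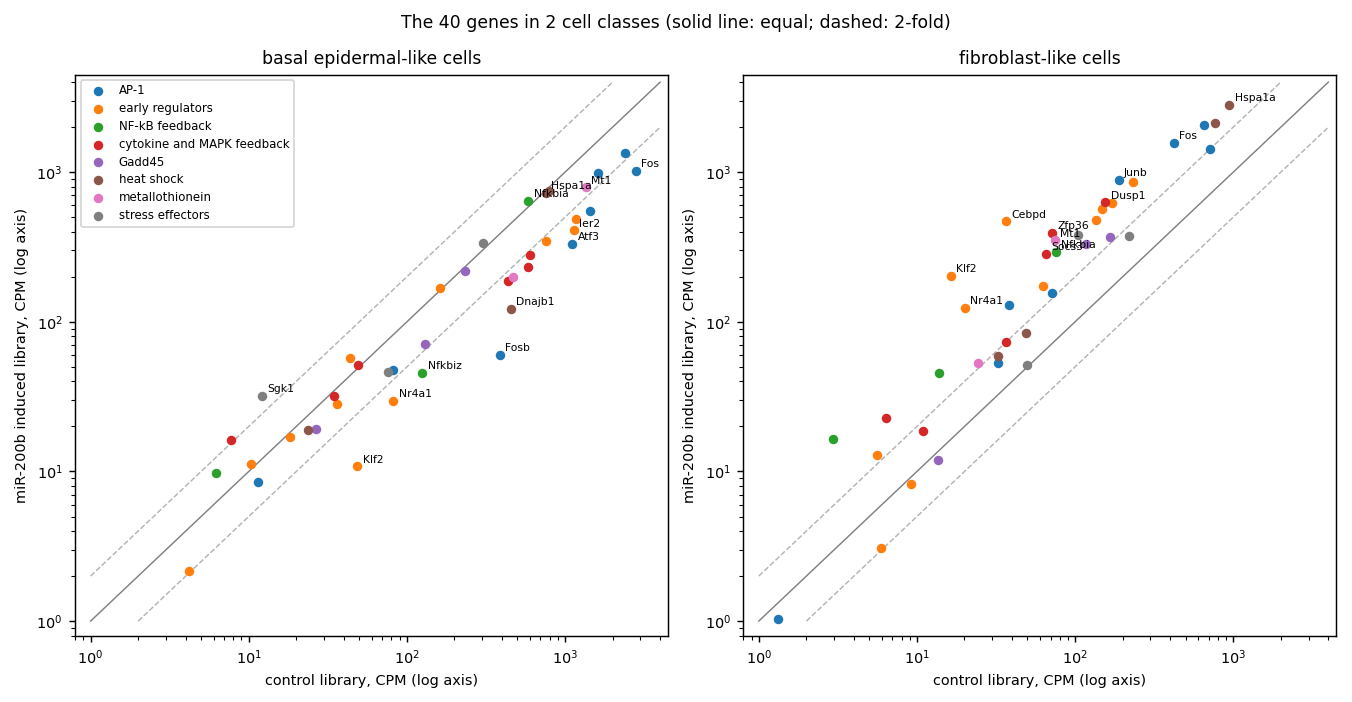
CPM of the 40 genes in the control (x axis) and induced library (y axis), both on log axes, in basal epidermal-like (left) and fibroblast-like cells (right), coloured by group. Most points lie below the line of equal level on the left and above it on the right, with Fos at 2809 and 1020.3 CPM on the left and 423 and 1578 CPM on the right.

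Cells of the same cluster could be compared in the 7 epithelial clusters with at least 20 cells of each library (963 control and 727 induced cells in all), and there AP-1 had no common direction. Of these, 5 were follicle clusters, and the other two, E13 and E22, stayed unnamed, with medians of 1071 and 2037 UMIs. AP-1 was lower in the induced cells of 3 of the 7 and higher in 4, with log2 ratios from -0.48 to 0.61 and a median of 0.03. The highest of these clusters, E7 of the outer root sheath, had 12442 and 9916 CPM, and E15 of the upper follicle had 4496 and 4580.0 CPM, close to each other. Cluster E19 had 3803 and 4733 CPM and E23 5104 and 3659 CPM, in opposite directions. Early regulators were higher in the induced cells of 6 of the 7 (median 0.12), heat shock of 5 (median 0.06) and metallothionein of all 7 (median 0.71, 0.40 to 2.05). None of the 7 was a basal or suprabasal cluster.

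With genes centred within each library before clustering, 11 epithelial clusters held at least 20 cells of each library, and AP-1 was lower in the induced cells of 8 of them (median log2 ratio -0.33, -1.21 to 0.19). One was basal epidermal-like (110 and 199 cells), led by H19 and the cell division genes Cdk1 and Top2a. AP-1 there had 7930.3 and 3436 CPM, a log2 ratio of -1.21 (-1.23 to -1.18) beside -1.18 (-1.19 to -1.16) over all reported basal cells. Fos had 2229 and 779.5 CPM, Fosb 291 and 46.4 CPM and Dusp1 419 and 158 CPM, and 14 of 32 members were called lower (all genes: 2.72%) and none higher (all genes: 2.11%). Early regulators had 2657 and 1222 CPM and heat shock 2175 and 1367 CPM. In a shared suprabasal-like cluster (31 and 152 cells), led by the late differentiation genes Flg and Lor, AP-1 had instead 5116 and 5628 CPM (0.14 (0.11 to 0.17)). There 4 of 31 members were called higher (all genes: 3.49%) and 2, Fosb and Rhob, lower (all genes: 5.25%). Keratins differed with the basal result, at 47549 and 24183 CPM over the reported basal cells and 41862 and 22828 CPM within the shared basal cluster, and the part that this difference plays was not tested.

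**Figure D4:**
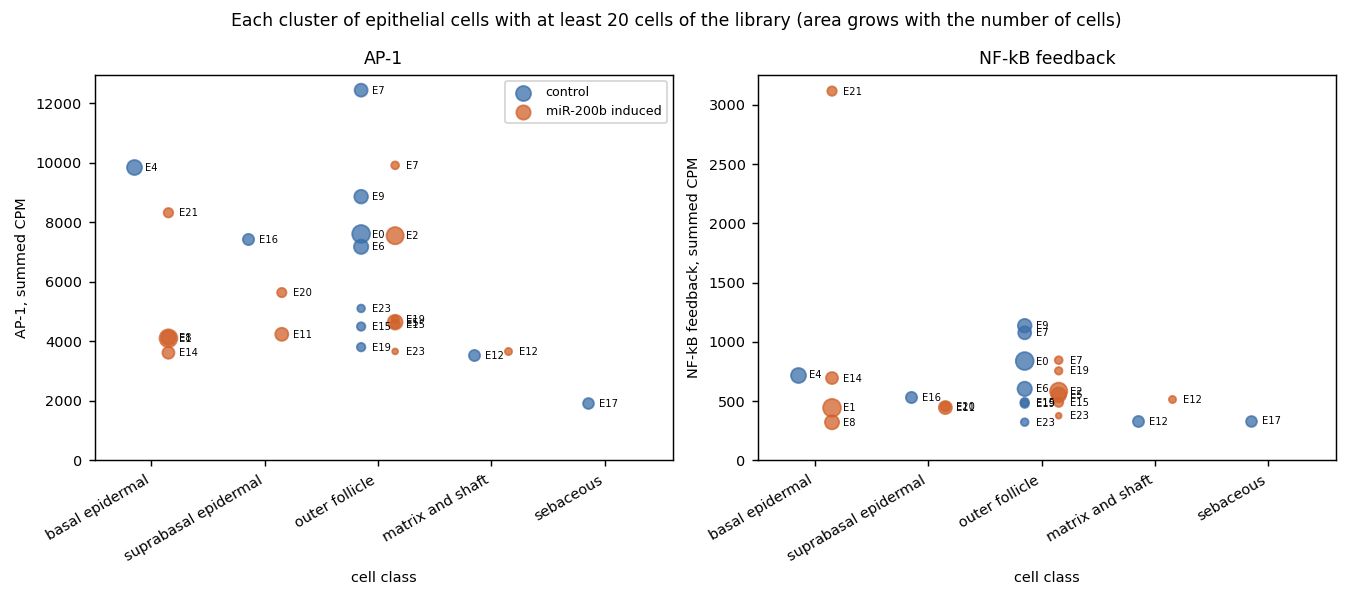
Summed CPM of AP-1 (left) and NF-kB feedback (right) in each epithelial cluster with at least 20 cells of the library, by class, control in blue and induced in orange, with point area growing with the number of cells. Cluster E21 stands apart at 3116 CPM of NF-kB feedback, and outer follicle clusters of both libraries overlap.

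The fibroblast difference was present within 1 shared cluster. In N1 (566 and 219 cells) AP-1 had 2123 and 5549 CPM, early regulators 845 and 2762 CPM, heat shock 1799 and 5381 CPM and NF-kB feedback 92.8 and 277 CPM, and 23 of 32 members were called higher (all genes: 3.01%) and none lower (all genes: 2.6%). Fos had 424 and 1312 CPM, Jun 654 and 2068 CPM, Dusp1 156 and 579 CPM and Hspa1a 950.2 and 3003 CPM. The 9 that were not past 2-fold were Fosl2, Jund, Atf3, Phlda1, Dnajb1, Mt1, Mt2, Rhob and Sgk1. Of these, Rhob (220.3 and 408 CPM) and Jund (711 and 1307 CPM) had log2 ratios of 0.89 and 0.88, and Dnajb1 (48.8 and 51.2 CPM) and Sgk1 (49.8 and 55.3 CPM) of 0.07 and 0.15. Those of Mt1 (74.8 and 69.9 CPM) and Mt2 (24.6 and 17.9 CPM) were below 0.

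Depth, mitochondrial share and carried-over RNA were set beside this result. Fibroblast-like cells had medians of 9898 and 6149 UMIs and 5.75% and 4.89% mitochondrial UMIs, and keratins, which mark keratinocyte RNA, were at 2326 and 2053 CPM. Cells with under 5% mitochondrial UMIs (194 and 154) had AP-1 at 2265 and 7303 CPM. Those with 5 to 10% (293 and 102) had 2050.1 and 4607 CPM, and those with 10 to 15% (82 and 44) had 1626 and 4613 CPM. AP-1 was thus more than 2-fold higher in each bin. In basal cells AP-1 was 10085 and 4652 CPM under 5% and 9888 and 4269 CPM at 5 to 10%. Collagens 1 and 3, the main fibroblast products, were at 57835 and 32668 CPM in the same cells, and their part in the ratios was not tested.

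Among the other dermal classes, dermal papilla-like cells had the highest AP-1 of the induced library, 6814 and 13474 CPM, and heat shock at 1979 and 9564 CPM. Jun had 787 and 3699 CPM and Dusp1 212 and 1253 CPM there. Their cells were shallow in the induced library (medians of 6190 and 1796 UMIs, with 6.11% and 8.61% mitochondrial UMIs), and 48 of 91 had under 2000 UMIs. Keratins there were 1323 and 3047 CPM and collagens 4114 and 1746 CPM, so markers of other cell types moved with this result, and their part was not tested. Among the cells with at least 2000 UMIs (52 and 43), each thinned to that number, the median cell had UMIs of 8.5 and 14 of the 40 genes. Pericyte-like cells had AP-1 at 3834 and 8159.6 CPM and NF-kB feedback at 162 and 736 CPM. Keratins there were 1016 and 5330.3 CPM, so keratinocyte RNA moved with this result, and its part was not tested. Gm13648 was 0 and 241 CPM, and whether it was carried over or made in these cells was not tested. Endothelial-like cells had AP-1 at 4019 and 6523 CPM and NF-kB feedback at 526 and 1173 CPM, with Nfkbia at 435 and 956 CPM and Zfp36 at 359.5 and 884 CPM. In these cells keratins were 1677 and 3472 CPM and collagens were 666 and 63.4 CPM, so keratinocyte RNA moved with this result too, and its part was not tested. Gm13648 was 0 and 94.6 CPM there, and its origin was likewise not tested.

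Per cell, the same pattern was seen when each cell was thinned to 2000 UMIs, leaving out shallower cells. The median basal epidermal-like cell had UMIs of 16 of the 40 genes in the control library (500 cells) and of 10 in the induced library (1599 cells), against 26 and 24 without thinning. The median fibroblast-like cell had 5 (563 cells) and 10 (264 cells), against 11 and 15. At least 4 of the 8 AP-1 genes had a UMI in 88.8% (85.7 to 91.4) and 46.5% (44.1 to 49.0) of basal cells. In fibroblast-like cells the shares were 10.1% (7.76 to 12.9) and 38.3% (32.4 to 44.4), with exact Clopper-Pearson intervals. Unthinned, these shares were 99.6% and 97.0% in basal cells, both near their ceiling, and 39.8% and 66.3% in fibroblast-like cells. No class lacked these genes, so no class served as a background for free RNA, and the lowest share was that of control fibroblast-like cells. Left out for depth were 1 basal cell and 42 fibroblast-like cells (6 control and 36 induced).

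**Figure D5:**
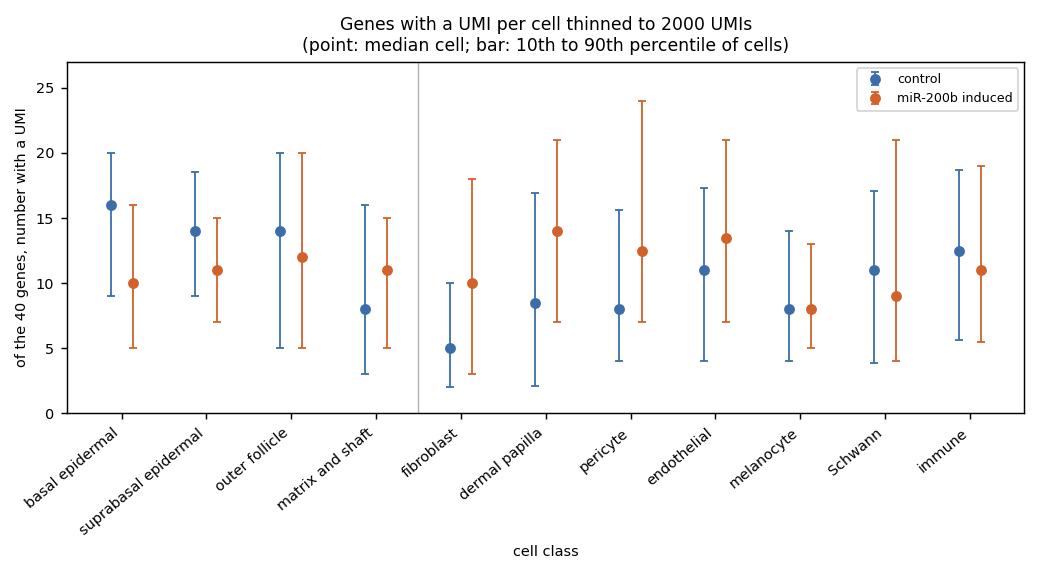
Number of the 40 genes with a UMI in cells thinned to 2000 UMIs, by class, control in blue and induced in orange; points are the median cell and bars run from the 10th to the 90th percentile of cells. Medians are 16 and 10 in basal epidermal-like cells and 5 and 10 in fibroblast-like cells.

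Within a library, cells high in AP-1 were also high in the early regulators and in cytokine and MAPK feedback. Over the thinned basal epidermal-like, outer follicle-like and fibroblast-like cells of each library (6 sets of 264 to 2205 cells), Pearson's r of UMIs with AP-1 was 0.56 to 0.76 for the early regulators and 0.51 to 0.70 for cytokine and MAPK feedback. It was 0.28 to 0.44 for NF-kB feedback and 0.16 to 0.43 for metallothionein. In induced basal cells cytokine and MAPK feedback (0.60) stood above the early regulators (0.56). Heat shock had r of 0.03 and 0.16 in basal cells and of 0.44 and 0.52 in fibroblast-like cells. In melanocyte-like cells (84 and 251) heat shock, at 0.66 and 0.45, stood above cytokine and MAPK feedback, at 0.47 and 0.39. With the mitochondrial percentage r lay between -0.22 and 0.03 in all 8 sets. Cells of a set share 1 library, so these values are a description.

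Barcodes outside the filter carried the genes too. Barcodes with 15% or more mitochondrial UMIs (823 control and 1678 induced) had AP-1 at 3257 and 4839.8 CPM and heat shock at 1697 and 2961 CPM. Barcodes with under 1000 UMIs or 500 genes (3071 and 2178) had AP-1 at 6811 and 5482 CPM and heat shock at 4026 and 3542 CPM. Over all kept barcodes AP-1 was at 6164 and 4832 CPM, so its order between the libraries was the opposite in the barcodes of high mitochondrial share.

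Genes of the same pathways outside the list were read in the same way, 3 or fewer named per direction. In fibroblast-like cells 9 of 13 serum and MAPK response genes were called higher (all genes: 4.35%), among them Maff (3.62 and 37.2 CPM), Errfi1 (15.5 and 102 CPM) and the matricellular gene Ccn1 (264 and 836 CPM). Of NF-kB targets, 4 of 7 were higher, led by the chemokines Ccl2 (2.47 and 165 CPM) and Cxcl1 (10.9 and 152 CPM) and by the adhesion molecule Icam1 (39.8 and 142 CPM). Of 16 chaperones outside the list, 1 was higher, Hspb1 (219 and 764 CPM), and 1 lower, the collagen chaperone Serpinh1 (2927 and 923 CPM; all genes lower: 2.98%), so the Hsp70 difference was not shared by most chaperones. In N1 alone the serum and MAPK count was 4 of 10 and the NF-kB count again 4 of 7 (all genes: 3.01%). Ccl2 had 2.48 and 76.4 CPM and Cxcl1 10.9 and 40.6 CPM there, and Maff was not among the genes called.

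Few genes of these lists were called over all epithelial cells (all genes: 2.3% higher and 4.19% lower) or in basal cells (2.56% and 2.76%), and more in suprabasal-like cells (7.11% and 7.5%). Over all epithelial cells Ccl20 (11.9 and 32.8 CPM), the chaperone Hspa4l (79.0 and 165 CPM) and the p53 target Phlda3 (79.5 and 205.3 CPM) were higher, and Gclc, of glutathione synthesis, was lower (60.2 and 22.8 CPM). In basal cells 2 of 13 serum and MAPK genes, Ccn1 (449 and 162 CPM) and Tiparp (126 and 50.5 CPM), and Serpinh1 (189 and 79.9 CPM) were lower, and Hspa4l (37.1 and 208 CPM), Hspb8 (18.8 and 47.9 CPM), Gclm (30.3 and 71.0 CPM) and Phlda3 (70.1 and 189.8 CPM) were higher. None of 10 unfolded protein and integrated stress response genes was called over all epithelial cells.

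In suprabasal-like cells, which lay in clusters with cells almost only of 1 library, 4 of 14 serum and MAPK genes were called higher (all genes: 7.11%), among them the EGF receptor ligands Ereg (6.92 and 46.7 CPM) and Areg (9.66 and 37.6 CPM), and Myc was lower (65.2 and 26.8 CPM). Of 15 chaperones, 3 were higher, led by the small heat shock protein Hspb1 (999 and 3512 CPM), and 2 lower, the mitochondrial pair Hspd1 (471 and 187 CPM) and Hspe1 (465 and 185 CPM). Mt4, the metallothionein of stratified epithelia, followed Mt1 and Mt2 there, at 40.7 and 1.59 CPM. Matrix and shaft-like cells lay in 1 shared cluster, with keratins at 7986 and 14678 CPM, and the part of keratins was not tested. Calls there went both ways (all genes: 5.26% higher and 6.57% lower). Of 7 metal and oxidative stress genes 3 were higher, led by Mt4 (109 and 1232 CPM), and Gclc was lower (97.6 and 29.3 CPM). Of 14 serum and MAPK genes 2 were higher, led by Klf4 (58.5 and 200.5 CPM), and Ccn2 was lower (52.3 and 5.55 CPM). Of 18 chaperones 3 were higher, led by Hspb1 (331 and 1641 CPM). Of 6 p53 response genes 2 were higher, among them Cdkn1a (48.5 and 171 CPM). Outer follicle-like cells had few calls, among them Etv4 (18.9 and 57.6 CPM, higher) and Myc (36.6 and 15.2 CPM, lower).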

How the data were processed

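Cells of whole dorsal skin were measured in 2 libraries, 1 per group, and both were deposited as UMI counts per gene and barcode. The authors made these counts with Cell Ranger 6.0.0 on mm10, per the submitters' processing notes. Counts were used as deposited: summed per class and library, given as CPM, and compared by a log2 ratio with exact Poisson and binomial intervals (95%), which cover counting error only. No test was possible with 1 library per group. The total UMIs were 100409201 in the control and 119705137 in the induced library.

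Cells were scaled to 10000 UMIs, and 2000 variable genes, 30 components and 15 neighbours were clustered with scanpy 1.11.5 and leidenalg 0.10.2 (Python 3.11.15). The 40 genes, the other pathway genes, cell cycle, sex, mitochondrial, ribosomal and haemoglobin genes were left out of the clustering. A cluster was named from at least 3 markers of a class. The plan had been to centre genes within each library. That clustering split melanocytes and put collagen-led cells among keratin clusters, so uncentred clusters are reported and the centred ones became an alternative. Scrublet's own threshold marked 3 and 2 cells and was not usable, so doublets were kept, and removing the 7% with the highest scores is an alternative.

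All 40 genes are accounted for: those with a mean of at least 20 CPM in epithelial cells are named with both values, the other 4 where they reach it elsewhere, and of each other pathway list up to 3 per direction. The genes, lists and comparisons were chosen with earlier results of these data known. Alternatives were a stricter cell filter (2000 UMIs, 1000 genes, 5% mitochondrial), per-cell means, ratios relative to the median gene, 1 CPM added, a minimum of 50 CPM, and barcodes of both libraries left out. Leaving out cluster E21, cells under 2000 UMIs or cluster N27, and reading the genes within shared clusters of the centred clustering, was chosen after seeing the data. The calling rule was tested on simulated data. Promoter and microRNA sequences come from RefSeq (GRCm38.p6), and sites from GRCm38 transcripts.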

Additional observations from a re-analysis of the deposited data

Results flagged for a closer look

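In 7 of the 8 gene groups the 2 libraries stood in opposite order in all epithelial cells and in fibroblast-like cells, and this difference between the compartments was not tested, since each group has 1 library. The log2 ratios of induced over control, epithelial first, were -0.46 and 1.57 for AP-1, -0.47 and 2.06 for the early regulators and -0.19 and 2.04 for cytokine and MAPK feedback. They were -0.31 and 1.26 for Gadd45, -0.31 and 1.51 for heat shock, -0.57 and 1.11 for the stress effectors and -0.08 and 2.02 for metallothionein. The epithelial order of metallothionein turned to 0.16 as a mean of per-cell CPM and to 0.04 relative to the median gene, and its fibroblast order did not hold in the shared cluster N1 (-0.18). In the 7 epithelial clusters that both libraries shared, no group had a median log2 ratio below 0. The medians were 0.03 for AP-1, 0.12 for the early regulators, 0.23 for cytokine and MAPK feedback, 0.26 for Gadd45, 0.06 for heat shock, 0.22 for the stress effectors and 0.71 for metallothionein. In the 11 clusters shared when genes were centred within each library, the medians were -0.33, -0.03, 0.03, -0.49, -0.22, 0.02 and 0.60 in the same order of groups.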

How the results depend on the processing

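In all epithelial and fibroblast-like cells no count of genes past 2-fold moved by over 1.5 times: 0 were higher and 4 to 7 (reported: 6) lower in all epithelial cells, and 23 to 28 (reported: 24) were higher and 0 lower in fibroblast-like cells. Log2 ratios are given for AP-1, NF-kB feedback, heat shock and metallothionein in this order, where they moved by more than their counting interval. In all epithelial cells (reported: -0.46, 0.12, -0.31 and -0.08), the stricter cell filter gave -0.30, 0.26, -0.35 and -0.54. The mean of per-cell CPM gave -0.50, -0.04, -0.37 and 0.16, and ratios relative to the median gene gave -0.34, 0.23, -0.19 and 0.04. Without cluster E21 the values were -0.49, -0.07, -0.29 and -0.20. Centred clusters moved AP-1, heat shock and metallothionein to -0.43, -0.29 and -0.01, and leaving out barcodes of both libraries moved them to -0.47, -0.32 and -0.10. Removing likely doublets moved AP-1 to -0.47 and metallothionein to -0.11.

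In fibroblast-like cells (reported: 1.57, 1.94, 1.51 and 2.02), the stricter filter gave 1.69, 2.19, 1.35 and 3.54, and the mean of per-cell CPM 1.68, 2.17, 1.66 and 2.51. Cluster N1 alone gave 1.39, 1.58, 1.58 and -0.18, so metallothionein reversed there, with a counting interval (-0.49 to 0.12) that includes 0. Centred clusters moved AP-1, heat shock and metallothionein to 1.48, 1.61 and 2.58. Removing likely doublets moved AP-1, NF-kB feedback and metallothionein to 1.73, 2.36 and 4.0. In basal epidermal-like cells (reported: -1.18, -0.04, -0.32 and -0.87, with 1 gene higher and 15 lower), the shared basal cluster of the centred clustering moved AP-1, NF-kB feedback and heat shock to -1.21, 0.42 and -0.67, with 0 genes higher and 14 lower. Beyond the steps named, the cause of these moves was not tested.

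Of 252 values of single genes in all epithelial cells (36 genes under 7 alternatives), 241 kept their sign and 11, of 9 genes, did not. No paired analysis was possible because each group has 1 library. With 1 library per group no value has a replicate error, and the dermal papilla-like, pericyte-like, endothelial-like, Schwann-like and immune-like classes rest on fewer than 100 cells per library, as do control melanocyte-like (84) and induced matrix and shaft-like (62) and sebaceous-like cells (3).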

Other observations

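Genes known to respond to glucocorticoids, steroid hormones of stress, were read in the same classes, on a list chosen with earlier results of these data known. In fibroblast-like cells all 5 of the genes at 20 CPM or more were called higher in the induced library (all genes: 4.35%). Tsc22d3, a leucine zipper protein that glucocorticoids induce, stood at 55.6 and 216 CPM (control first), Klf9 at 81.9 and 346 CPM, and the clock gene Per1 at 9.71 and 42.9 CPM. In the shared cluster N1 alone these were 55.9 and 141 CPM, 82.4 and 225 CPM, and 9.59 and 42.3 CPM. In basal epidermal-like cells Klf9 went the other way, at 76.4 and 24.3 CPM, and in suprabasal-like cells it stood at 43.1 and 7.43 CPM. Tsc22d3 was low in both, at 2.76 and 7.89 CPM and at 6.26 and 25.6 CPM. Tsc22d3 was higher in the induced library in other classes as well. It stood at 46.9 and 185 CPM in melanocyte-like, 49.0 and 157 CPM in Schwann-like and 132 and 330.4 CPM in immune-like cells, and the induced library was likewise the higher in dermal papilla-like (171 and 558 CPM), pericyte-like (71.5 and 299 CPM) and endothelial-like cells (122 and 349 CPM). Other genes of the list did not all follow. In immune-like cells 3 of 4 were called higher (all genes: 3.83%) and Per1 lower (40.1 and 14.6 CPM, all genes: 4.6%). Errfi1 had 214 and 172 CPM in dermal papilla-like cells.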
